A study of Homo sapiens with 59 samples.

Results

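The transcriptome of A549, an epithelial cell line established from a human lung carcinoma, was compared between a high and a low dose of Yijung-tang, a traditional herbal formula given as an ethanol extract. The high-dose group was 500 µg/mL and held 2 libraries, and the low-dose group was 20 µg/mL and also held 2 libraries. These 4 libraries were chosen from the 59 of the series by the library code in their descriptions, and they carry codes of 1 library set. Cells were exposed for 24 h, and bulk RNA was sequenced. Of the 60675 genes in the deposited table, 18339 passed the filter on low counts and were tested. The 2 Yijung-tang libraries at the medium dose of 100 µg/mL and the 3 vehicle libraries, with 0.1% DMSO in the sample labels and 2% in the series text, are given beside the results as levels. The vehicle libraries carry codes outside the Yijung-tang set, so a difference from vehicle and a difference between sets cannot be told apart. The same 500 and 20 µg/mL doses of 4 single-herb extracts (Zizyphi Fructus, Citri Unshius Pericarpium, Cimicifugae Rhizoma and Aconiti Lateralis Radix Preparata) serve as a comparison of dose differences. Their libraries also carry codes of other sets, and each dose difference was taken within an extract. The labels do not state the make-up of the formula, which in traditional use combines ginseng, dried ginger, licorice and Atractylodes rhizome. Whether the replicates are separate cultures is not stated, so the p-values below speak of the spread between libraries, which may be technical.

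Cells hold their cholesterol constant through SREBP2, the product of SREBF2, a membrane-bound transcription factor of the endoplasmic reticulum. When sterols in that membrane are low, SREBP2 is carried to the Golgi, is cut free and switches on genes of cholesterol synthesis and uptake; INSIG proteins hold it back when sterols are high. A separate stress pathway works through ATF4, which is translated when the kinases of the integrated stress response are active and switches on amino acid synthesis and transport genes. The aryl hydrocarbon receptor (AhR) is a ligand-activated transcription factor that binds many planar plant and combustion compounds and induces cytochrome P450 enzymes of the CYP1 family.

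At the high dose, 24 of 26 listed genes of cholesterol synthesis and uptake rose, as did fatty acid desaturation genes, a subset of ATF4 targets and the AhR targets CYP1A1, CYP1B1 and TIPARP. The falls held the noncoding RNA H19, the nuclear receptors NR4A1 and NR4A3, all 3 fibrinogen chains and the hormone gene INSL4. Of the 18339 genes tested, 413 were called at an adjusted p below 0.05 (edgeR quasi-likelihood test, Benjamini-Hochberg), which is 2.25% of those tested. Higher at the high dose were 240 genes (1.31%), and lower were 173 (0.943%). Most differences were small: the median log2 fold change was 0.47 among the higher genes and -0.40 among the lower ones, and 36 genes rose and 14 fell by more than 1 on the log2 scale. In all 413 called genes both high-dose libraries lay beyond both low-dose libraries, as they did in 46.81% of all genes tested. Of the called genes 330 belong to none of the gene lists described below, 179 of them higher and 151 lower. Protein-coding genes made up 97.58% of the called genes and 76.66% of those tested.

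The count of calls depended on which libraries estimated the spread. The fit used 55 libraries and left out 4 libraries of other extracts that stood apart (Citri Unshius Pericarpium high dose replicate 3 and medium dose replicate 3, and Cimicifugae Rhizoma medium dose replicate 2 and low dose replicate 2); with all 59 libraries 80 genes were called, and with the 6 Yijung-tang libraries alone 692. Leaving out 1 compared library gave 174 calls without high-dose replicate 1, 184 without high-dose replicate 2, 174 without low-dose replicate 1 and 161 without low-dose replicate 2.

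**Figure D1:**
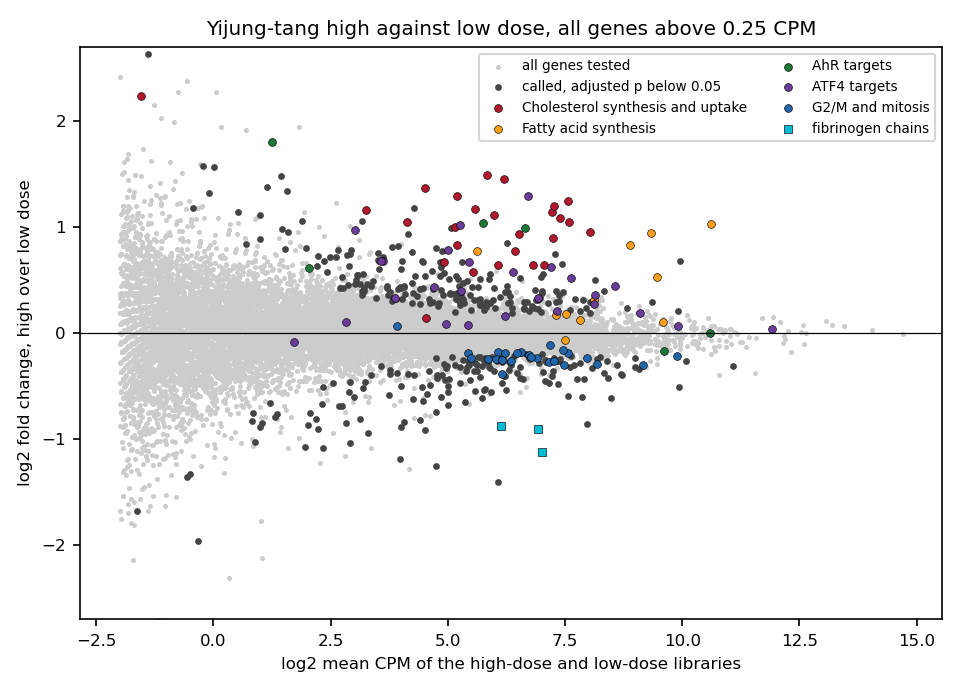
Log2 fold change of the high over the low dose of Yijung-tang (y axis) against the log2 mean CPM of the compared libraries (x axis) for the 16805 genes above 0.25 CPM; grey points are all genes tested, dark points the called ones, colours mark gene groups, and 10 genes lie beyond the drawn range of 2.7. The sterol genes in red sit above 0 over a wide range of levels, and the 3 fibrinogen chains lie near -1.

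The high-dose libraries held 28996329 and 22842339 expected counts, the low-dose ones 33765764 and 33705367, and those of the whole series 17214755 to 39751161. The part of this difference in depth in the results was not tested. On the first principal component of all 59 libraries (17.88% of the variance), the 4 libraries left out scored 40.58 to 102.9 and the Yijung-tang libraries -11.33 to 4.734. Within the 6 Yijung-tang libraries the first component (26.87%) placed the low dose at -11.4 and -15.1, the medium dose at -9.6 and -14.3 and the high dose at 17.1 and 33.5. The second component (22.37%) parted the medium-dose libraries, at -34.6 and 21.2. On it the low dose lay at 2.1 and 8.0 and the high dose at 0.0 and 3.4. All 7 lung epithelial markers checked for A549 exceeded 1 CPM in the compared libraries, and their summed level was 6544 to 6886 CPM at the high dose and 7792 to 7964 CPM at the low dose. The 13 markers of other cell types summed to 29.08 to 30.24 CPM at the high dose and 37.45 to 37.72 CPM at the low dose, most of it COL1A1; CD3E and MYH6 were at 0 in all 4 libraries. The part of these marker levels in the results was not tested, and in bulk RNA fewer cells of a type and less RNA per cell cannot be told apart.

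Cholesterol synthesis and uptake genes rose nearly throughout the pathway. Of the 26 members of the list, all tested, 24 were higher at the high dose and 0 lower, and their median log2 fold change was 1.05, against 0.004 over all genes tested. The remaining pair, not called, was the kinase PMVK, at 24.1 and 24.7 CPM at the high dose and 22.8 and 21.6 CPM at the low dose, and the intestinal cholesterol transporter NPC1L1, below 0.7 CPM in every library. With all 59 libraries 19 of the members were called, and every leave-out of a compared library called 24.

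INSIG1, the anchor that retains SREBP in the endoplasmic reticulum and is itself an SREBP target, showed the largest log2 fold change among called genes of at least 5 CPM. It lies on chromosome 7 at 155297776 to 155310235, plus strand (GRCh38), and measured 86.9 and 82.8 CPM at the high dose against 31.0 and 29.3 CPM at the low dose. The medium dose gave 36.4 and 37.1 CPM, and the vehicle libraries 35.5, 35.5 and 38.2 CPM. The high dose lay far above the vehicle libraries, the medium dose within their range and the low dose below it. The log2 fold change was 1.49 ± 0.09 (standard error; adjusted p = 6.826e-16 in the edgeR fit).

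The early steps build isoprenoid units from acetyl-CoA. ACAT2, which joins acetyl-CoA units at the start of the route, stood at 63.0 and 68.7 CPM at the high dose and 28.5 and 29.9 CPM at the low dose. HMGCS1, the HMG-CoA synthase, reached 329 and 357 CPM at the high dose, against 180 and 175 CPM at the low dose. The groups did not overlap in either gene. MVD, the mevalonate diphosphate decarboxylase, had the largest rise of this stretch, with 50.7 and 53.1 CPM at the high dose and 21.8 and 20.4 CPM at the low dose (log2 fold change 1.30 ± 0.09). MVK, the mevalonate kinase, IDI1, the isopentenyl diphosphate isomerase, and FDPS, the farnesyl diphosphate synthase, rose by 1.01, 0.93 and 1.14 on the log2 scale.

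The later steps commit the route to sterols. FDFT1, the squalene synthase, had 267 and 263 CPM at the high dose and 112 and 111 CPM at the low dose, with 127 CPM in both medium-dose libraries and 113 to 124 CPM with vehicle. Its log2 fold change of 1.25 ± 0.05 had the smallest adjusted p of the sterol genes (1.666e-20, edgeR). SQLE, the squalene epoxidase, measured 257 CPM in both high-dose libraries and 127 and 122 CPM in the low-dose ones. Lanosterol synthase LSS rose by 1.11, the demethylase CYP51A1 by 1.08, TM7SF2 by 1.16 and HSD17B7 by 1.04. MSMO1, the sterol methyl oxidase, rose most among the post-squalene enzymes, to 102 and 112 CPM at the high dose, against 40.4 and 37.7 CPM at the low dose (1.46 ± 0.08). DHCR7, a reductase at the end of the route, rose by 1.20, and NSDHL, EBP and SC5D by 0.57, 0.65 and 0.67. The called enzymes named here thus spanned log2 fold changes of 0.57 to 1.46, each without overlap between the doses.

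Transport and control genes moved the same way. STARD4, a cytosolic sterol carrier, rose by 0.83. SREBF2, the gene of the transcription factor itself, had 163 and 159 CPM at the high dose and 103 CPM in both low-dose libraries (0.64 ± 0.07). The calls of MVD, EBP, SC5D, NSDHL and STARD4 were lost when all 59 libraries were fitted, with adjusted p of 0.252, 0.878, 0.315, 0.085 and 0.238.

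**Figure D2:**
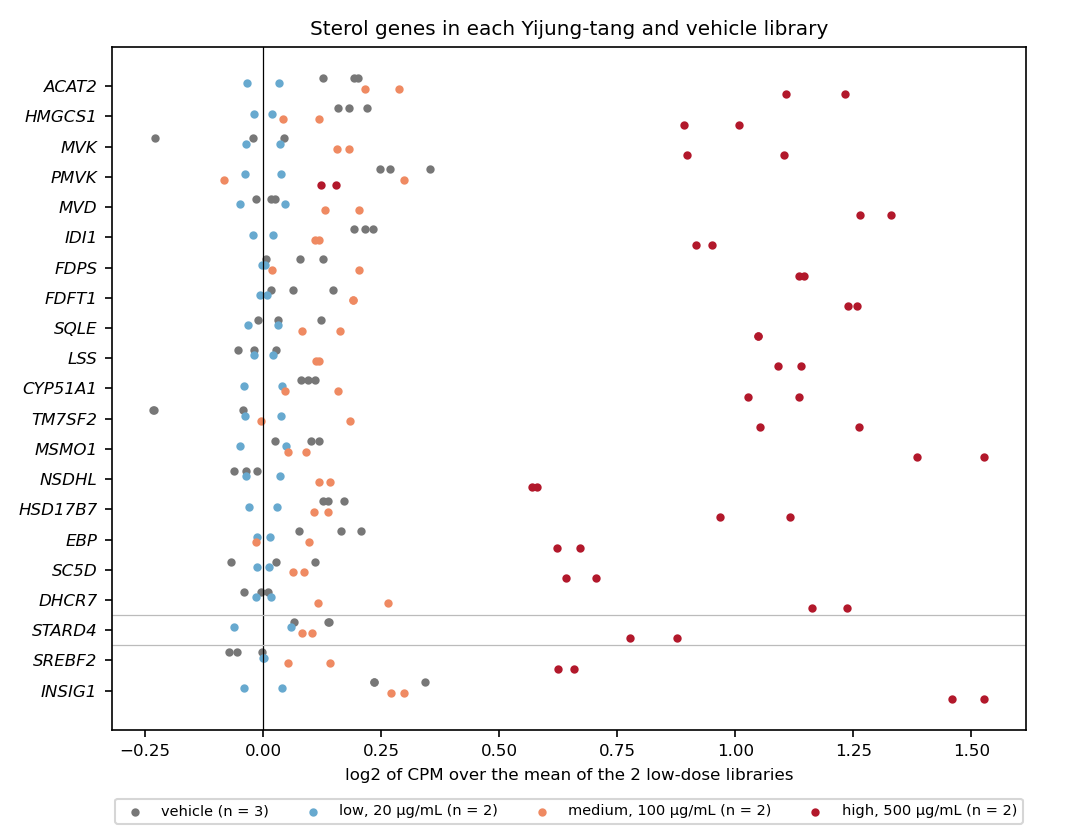
Log2 of CPM over the mean of the 2 low-dose libraries (x axis) for 21 sterol genes in pathway order (enzymes, then the carrier STARD4, then regulators, divided by grey lines); each point is 1 library of vehicle, low, medium or high dose, and NPC1L1 is not drawn. Apart from PMVK, the high-dose points lie to the right of all other points in every row.

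The rise was concentrated between the medium and the high dose. On the log2 scale, with the low dose at 0% and the high dose at 100%, the medium-dose mean of the 24 called sterol genes lay at a median of 11.38%. The median log2 ratio of the list was 0.92 for high over medium and 0.11 for medium over low. Against vehicle the median was -0.07 at the low dose, 0.06 at the medium dose and 1.00 at the high dose.

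At the same doses of the 4 single-herb extracts the list's median log2 ratio of high over low dose lay close to 0. It was -0.02 for Zizyphi Fructus, 0.03 for Citri Unshius Pericarpium, 0.06 for Cimicifugae Rhizoma and -0.01 for Aconiti Lateralis Radix Preparata. Banhasasim-tang, the other formula of the library set with 1 library a dose, gave 0.07, with no test. A pair of further extracts was given at other doses, so their values only stand beside these. For Bupleuri Radix at 190 over 7.6 µg/mL the list median was 0.30, with 0.59 for INSIG1 and MSMO1, 0.47 for SQLE and 0.42 for FDFT1. For Coptidis Rhizoma at 110 over 4.4 µg/mL it was -0.45, with -0.63 for INSIG1. Neither enters the test that follows. The difference between the dose effect of Yijung-tang and the mean of the 4 extracts was tested in the same fit, from libraries that the terms do not share. It was called for 91 genes (0.496% of those tested), 79 of them higher in Yijung-tang (0.431%) and 12 lower (0.0654%). All 24 called sterol genes were among these 79. The Yijung-tang term of this difference is the dose effect already tested above, so these calls are not independent of it.

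Promoter sequence was read for the genes of the list from RefSeq windows on GRCh38.p14, from 250 bases before to 50 after each transcription start. Windows were matched for 19 of the 26 genes, 24 windows in all. SREBP acts at sterol regulatory elements together with NF-Y, a factor that binds CCAAT, so CCAAT was searched on both strands. The windows of INSIG1, of the enzymes MVK and MSMO1 and of SREBF2 are shown because these genes rose together and their matches vary in number. All are on the plus strand, 5′ to 3′, with CCAAT or its reverse form ATTGG in capitals.
INSIG1, chr7:155297628-155297927: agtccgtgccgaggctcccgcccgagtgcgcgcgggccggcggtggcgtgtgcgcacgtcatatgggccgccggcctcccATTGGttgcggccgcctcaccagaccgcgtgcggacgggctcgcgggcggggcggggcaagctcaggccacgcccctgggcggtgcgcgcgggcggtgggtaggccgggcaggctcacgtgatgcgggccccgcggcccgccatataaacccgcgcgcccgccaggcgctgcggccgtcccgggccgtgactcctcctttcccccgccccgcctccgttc
MVK, chr12:109573544-109573843: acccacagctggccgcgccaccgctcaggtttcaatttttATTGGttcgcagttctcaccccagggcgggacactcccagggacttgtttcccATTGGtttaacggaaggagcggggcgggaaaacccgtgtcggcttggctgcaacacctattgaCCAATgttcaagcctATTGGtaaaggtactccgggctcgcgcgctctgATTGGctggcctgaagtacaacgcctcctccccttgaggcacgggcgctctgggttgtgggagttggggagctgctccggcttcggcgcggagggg
MSMO1, chr4:165327419-165327718: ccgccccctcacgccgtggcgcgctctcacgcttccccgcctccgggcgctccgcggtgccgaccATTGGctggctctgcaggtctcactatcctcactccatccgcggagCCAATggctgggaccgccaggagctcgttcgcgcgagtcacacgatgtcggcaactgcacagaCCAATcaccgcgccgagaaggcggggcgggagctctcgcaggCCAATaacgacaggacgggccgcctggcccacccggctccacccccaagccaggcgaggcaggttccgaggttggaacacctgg
SREBF2, chr22:41832855-41833154: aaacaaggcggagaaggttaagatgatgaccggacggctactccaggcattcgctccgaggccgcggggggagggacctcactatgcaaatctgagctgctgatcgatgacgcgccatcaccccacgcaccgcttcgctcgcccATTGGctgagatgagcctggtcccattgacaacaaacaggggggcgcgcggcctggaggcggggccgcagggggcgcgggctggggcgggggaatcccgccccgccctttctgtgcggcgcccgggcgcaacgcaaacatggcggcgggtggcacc
MVK has 5 CCAAT matches, MSMO1 has 4, and INSIG1 and SREBF2 have 1 each. CCAAT was present in 19 of the 24 windows (79.2%), against 34.6% of all 35116 windows and 34.2% of the windows of genes tested. Windows with 2 or more matches were 50% of the list and 10.8% of all. Of the windows of all called genes higher at the high dose 46.7% held CCAAT, and of those lower 39.8%. The core of the AhR response element, GCGTG, was searched in the same way on both strands. It was present in 21 of the 24 sterol windows (87.5%), against 36.5% of all windows and 47.4% of the windows of genes tested, and in 5 of 9 windows of the AhR target list (55.6%). The sterol windows thus held both motifs in larger shares than all windows did. These matches describe the letters of the windows and are not binding sites.

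Fatty acid genes rose in part. Of 11 members tested of 12, 5 were higher at the high dose and 0 lower, with a median log2 fold change of 0.31. SCD, the stearoyl-CoA desaturase that makes oleic acid, had 2125 and 2102 CPM at the high dose and 1025 and 1042 CPM at the low dose (1.03 ± 0.11; adjusted p = 4.532e-08, edgeR). FADS2 and FADS1, desaturases of polyunsaturated fatty acids, rose by 0.94 and 0.83, and ELOVL6, an elongase, by 0.77. For FASN, the fatty acid synthase, the levels were 859 and 807 CPM at the high dose and 568 and 586 CPM at the low dose (0.53 ± 0.08), a call lost with all 59 libraries (adjusted p = 0.13). SREBF1, which encodes the relative of SREBP2 that governs fatty acid synthesis, had a log2 fold change of -0.07 (adjusted p = 0.863). ACACA, the acetyl-CoA carboxylase, stood at 0.31 and ACLY, the citrate lyase, at 0.11, both uncalled. All 5 risen genes also differed from the mean of the 4 single-herb extracts.

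Export genes did not mirror these rises as a group: among 7 LXR targets tested, LXR being the nuclear receptor that senses oxysterols, 0 were higher and 1 was lower. That gene was ABCG1, a sterol exporter, with 0.307 and 0.337 CPM at the high dose and 1.08 and 1.46 CPM at the low dose (log2 fold change -1.97 ± 0.33). Vehicle libraries had 0.391 to 0.491 CPM, nearer the high dose than the low one. ABCA1, the other main cholesterol exporter, had 8.02 and 9.81 CPM at the high dose and 11.2 and 10.9 CPM at the low dose and was not called. DESeq2 gave ABCG1 no adjusted p.

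Among targets of ATF4, 10 of 26 were higher at the high dose and 0 lower, with a median log2 fold change of 0.38. TRIB3, a pseudokinase that ATF4 induces and that dampens AKT signalling, measured 150 and 148 CPM at the high dose against 60.7 and 61.4 CPM at the low dose. It lies on chromosome 20 at 362835 to 397559, plus strand. Medium-dose libraries had 74.4 and 71.1 CPM and vehicle libraries 66.3 to 73.1 CPM, so only the high dose exceeded the vehicle range clearly (1.29 ± 0.17; adjusted p = 1.411e-06, edgeR). STC2, a secreted glycoprotein, rose by 1.02, and ALDH1L2, a mitochondrial folate enzyme, by 0.79. Amino acid enzymes followed with smaller values: PCK2 rose by 0.67, the asparagine synthetase ASNS by 0.63, the serine pathway enzyme PHGDH by 0.58 and the alanine transaminase GPT2 by 0.43. DDIT4, an inhibitor of mTORC1, rose by 0.52, the lipoprotein receptor VLDLR by 0.40 and the transcription factor CEBPG by 0.33. CHAC1, DDIT3 and ATF4 itself had log2 fold changes of 0.97, 0.68 and 0.27 and were not called. Other extracts also raised this list. Its median log2 ratio of high over low dose was 0.38 in Aconiti Lateralis Radix Preparata and 0.28 in Citri Unshius Pericarpium. In Cimicifugae Rhizoma it was 0.18 and in Zizyphi Fructus -0.01. Banhasasim-tang, with 1 library a dose and no test, gave 0.89. At their other doses Coptidis Rhizoma gave 0.40 and Bupleuri Radix 0.10.

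The precision of this list was lower than that of the sterol genes. With all 59 libraries only TRIB3 and PCK2 of the 10 kept their call. ASNS, DDIT4, PHGDH, CEBPG, STC2 and GPT2 lost it without any 1 of the 4 compared libraries, high-dose replicate 1 or 2 and low-dose replicate 1 or 2 alike, with adjusted p of at most 0.774 over all alternatives. PCK2 lost it without low-dose replicate 1 (0.0951).

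The endoplasmic reticulum chaperones shifted by less. Of 20 members, 6 were higher at the high dose and 0 lower, with a median of 0.19. HSPA5, the chaperone BiP and the central sensor partner of the unfolded protein response, had 698 and 735 CPM at the high dose and 580 and 589 CPM at the low dose (0.29 ± 0.06; adjusted p = 0.00194, edgeR). HERPUD1 rose by 0.36, the sensor kinase ERN1 by 0.35, MANF by 0.32, the lectin chaperone CANX by 0.21 and the disulfide isomerase PDIA4 by 0.19. XBP1, whose transcript ERN1 splices, stood at -0.02 and was not called. None of the 6 calls held with all 59 libraries, where adjusted p ran from 0.0811 for HSPA5 to 1 for CANX and ERN1. HSPA5 also lost its call without high-dose replicate 2 or low-dose replicate 1, and the other 5 lost theirs without any 1 of the 4 compared libraries.

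Within the AhR target list CYP1A1, CYP1B1 and TIPARP rose. Of 6 tested of 8, 3 were higher and 0 lower, and the median log2 fold change was 0.80. CYP1A1, the classic AhR-induced monooxygenase, on chromosome 15 at 74719542 to 74725610, minus strand, had 3.38 and 4.00 CPM at the high dose and 0.990 and 1.11 CPM at the low dose. The medium dose gave 1.82 and 2.02 CPM and vehicle 0.618 to 0.899 CPM, so the 4 levels were ordered by dose without overlap. Its log2 fold change was 1.81 ± 0.25 (adjusted p = 6.53e-06, edgeR). CYP1B1, its relative that also oxidises steroids, measured 129 and 138 CPM at the high dose and 68.0 and 66.2 CPM at the low dose, with 81.2 and 89.0 CPM at the medium dose. TIPARP, an ADP-ribosyltransferase that represses AhR, had 71.1 and 73.3 CPM at the high dose and 36.1 and 34.1 CPM at the low dose (1.04 ± 0.10), a call lost with all 59 libraries (adjusted p = 0.114). AHRR, the AhR repressor, had a log2 fold change of 0.61 with an adjusted p of 0.0514, NQO1, which NRF2 also drives, of -0.001 and the aldehyde dehydrogenase ALDH3A1 of -0.17; none of the 3 was called. The medium dose covered a median of 34.9% of the log2 rise in the 3 called genes, against 11.38% in the sterol genes; this difference between lists was not tested. CYP1B1 also differed from the mean of the 4 single-herb extracts (0.42, adjusted p = 0.00178, edgeR). The differences of CYP1A1 (0.52, adjusted p = 0.864) and TIPARP (0.33, adjusted p = 0.33) were not called in that fit. The 4 extracts were not alike: the log2 ratio of CYP1B1 was 1.09 in Cimicifugae Rhizoma and 0.24 in Zizyphi Fructus, beside 0.99 in Yijung-tang. At other doses and outside that contrast, CYP1B1 had 1.21 in Coptidis Rhizoma and 1.00 in Bupleuri Radix. The median log2 ratio of the AhR list was 1.28 and 0.92 in these extracts. In Banhasasim-tang, with 1 library a dose and no test, it was -0.16.

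Lysosome and autophagy genes gave 6 rises and 1 fall among 29, with a median of 0.12. RRAGD, a Rag GTPase of the lysosomal nutrient sensor, had 3.52 and 4.42 CPM at the high dose and 2.01 and 2.07 CPM at the low dose (0.95 ± 0.19). The sialidase NEU1 rose by 0.76, and FLCN and FNIP1, which form the folliculin complex that acts on Rag GTPases, by 0.57 and 0.37. SQSTM1, the autophagy receptor p62, had 1259 and 1195 CPM at the high dose and 762 and 765 CPM at the low dose (0.68 ± 0.15). NPC1, which exports cholesterol from lysosomes and is also an SREBP2 target, rose by 0.34, while the protease CTSB fell by 0.25. NEU1, FLCN and RRAGD were called also with all 59 libraries. RRAGD lost its call without high-dose replicate 2 (adjusted p = 0.0907), FNIP1 without that library or either low-dose one, SQSTM1 on leaving out high-dose replicate 1, low-dose replicate 1 or low-dose replicate 2, NPC1 without high-dose replicate 2 or low-dose replicate 2, and CTSB without either high-dose library or low-dose replicate 2.

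**Figure D3:**
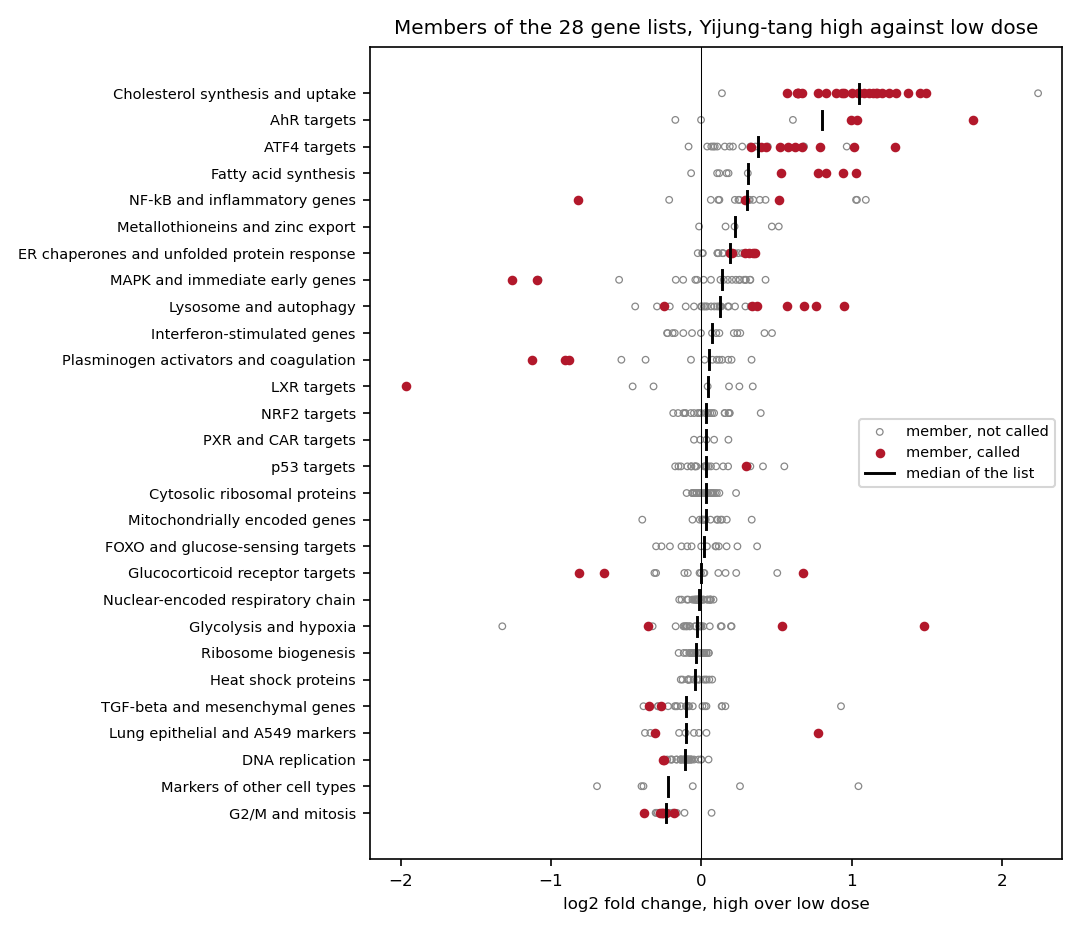
Log2 fold change of the high over the low dose (x axis) for the tested members of 28 gene lists (rows, ordered by median); filled points are called genes, open points the others and black bars the list medians. The sterol list has its median at 1.05 with 24 filled points, while the ribosomal, respiratory chain and heat shock lists hold no filled point and lie close to 0.

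Among called genes of at least 5 CPM, H19 fell most. H19 is an imprinted long noncoding RNA of chromosome 11 (1995176 to 2001470, minus strand), abundant in fetal tissue and many tumours. It had 35.4 and 38.5 CPM at the high dose and 97.8 and 98.1 CPM at the low dose. The medium dose lay between, at 79.3 and 72.2 CPM, and vehicle libraries had 78.5 to 93.1 CPM, below the low dose. The log2 fold change was -1.41 ± 0.17 (adjusted p = 3.212e-07, edgeR).

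The fibrinogen chains fell together. FGA, FGB and FGG, which encode the subunits of the clotting protein fibrinogen, lie side by side on chromosome 4 between 154562956 and 154612967. FGB had 79.9 and 81.9 CPM at the high dose, against 179 and 174 CPM at the low dose. FGA measured 82.0 and 88.1 CPM at the high dose and 160 and 158 CPM at the low dose. FGG stood at 50.2 and 49.3 CPM at the high dose and 91.2 and 91.6 CPM at the low dose. All high-dose levels were also below every vehicle library, whose lowest values were 157 CPM for FGB, 145 CPM for FGA and 76.6 CPM for FGG. The log2 fold changes were -1.13 ± 0.17, -0.91 ± 0.11 and -0.88 ± 0.17. The other 11 coagulation and plasminogen genes tested were not called; among them the tissue factor F3 had a log2 fold change of -0.53 (adjusted p = 0.227).

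The nuclear receptors NR4A1 and NR4A3 fell. NR4A1 had 16.5 and 15.4 CPM at the high dose and 37.6 and 38.6 CPM at the low dose, with 30.2 and 30.6 CPM at the medium dose (-1.26 ± 0.23; adjusted p = 0.000615, edgeR). NR4A3 had 3.24 CPM in both high-dose libraries and 6.70 and 7.10 CPM in the low-dose ones (-1.09 ± 0.17), a call lost with all 59 libraries (adjusted p = 0.0685). These were the 2 called genes of 24 in the MAPK and immediate early list, whose median was 0.14. Their relative NR4A2 had a log2 fold change of -1.09 (adjusted p = 0.0626, edgeR) and the immediate early genes FOSB and FOS of -1.08 and -0.55, without a call. MYC, at 148 and 141 CPM at the high dose and 136 and 140 CPM at the low dose, was not called, and neither was the phosphatase DUSP4.

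Further named falls included several genes of secreted and membrane proteins. INSL4, a placental relaxin-like hormone, had 9.59 and 9.51 CPM at the high dose and 22.0 and 21.6 CPM at the low dose (-1.19 ± 0.15). BMP6, a bone morphogenetic protein, measured 4.98 and 4.97 CPM at the high dose and 10.1 and 10.3 CPM at the low dose (-1.04 ± 0.14). NPTX1, a neuronal pentraxin, had 184 and 172 CPM at the high dose, against 313 and 331 CPM at the low dose (-0.86 ± 0.09). Each of these levels at the high dose was also below all vehicle libraries. SUSD2 fell by 0.91, TM4SF4 by 0.89, TENM3 by 0.87 and the bladder plaque protein UPK3B by 0.90. AXIN2, a feedback inhibitor of Wnt signalling, had 2.25 and 2.74 CPM at the high dose and 5.62 and 4.86 CPM at the low dose, but 2.91 to 3.56 CPM with vehicle. AQP3, a water and glycerol channel, showed the same order, with 5.97 and 7.58 CPM at the high dose, 12.5 and 13.4 CPM at the low dose and 6.61 to 8.96 CPM with vehicle. For AXIN2 and AQP3 the low dose thus lay above vehicle, and for AQP3 the high dose overlapped it. The low dose was above all vehicle libraries also for INSL4 (vehicle 16.05 to 20.38 CPM) and BMP6 (7.148 to 8.595 CPM). SUSD2 was alike, with 28.4 and 30.9 CPM at the low dose and 24.7 to 27.2 CPM with vehicle. For NPTX1 and TM4SF4 the low dose lay below all vehicle libraries. The vehicle libraries are not of the Yijung-tang set, and a difference between sets was not tested.

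AXIN2 lost its call without high-dose replicate 1 or low-dose replicate 1, AQP3 also without low-dose replicate 2, and UPK3B without any 1 of the 4 compared libraries. These genes and TENM3 were not called with all 59 libraries either.

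**Figure D4:**
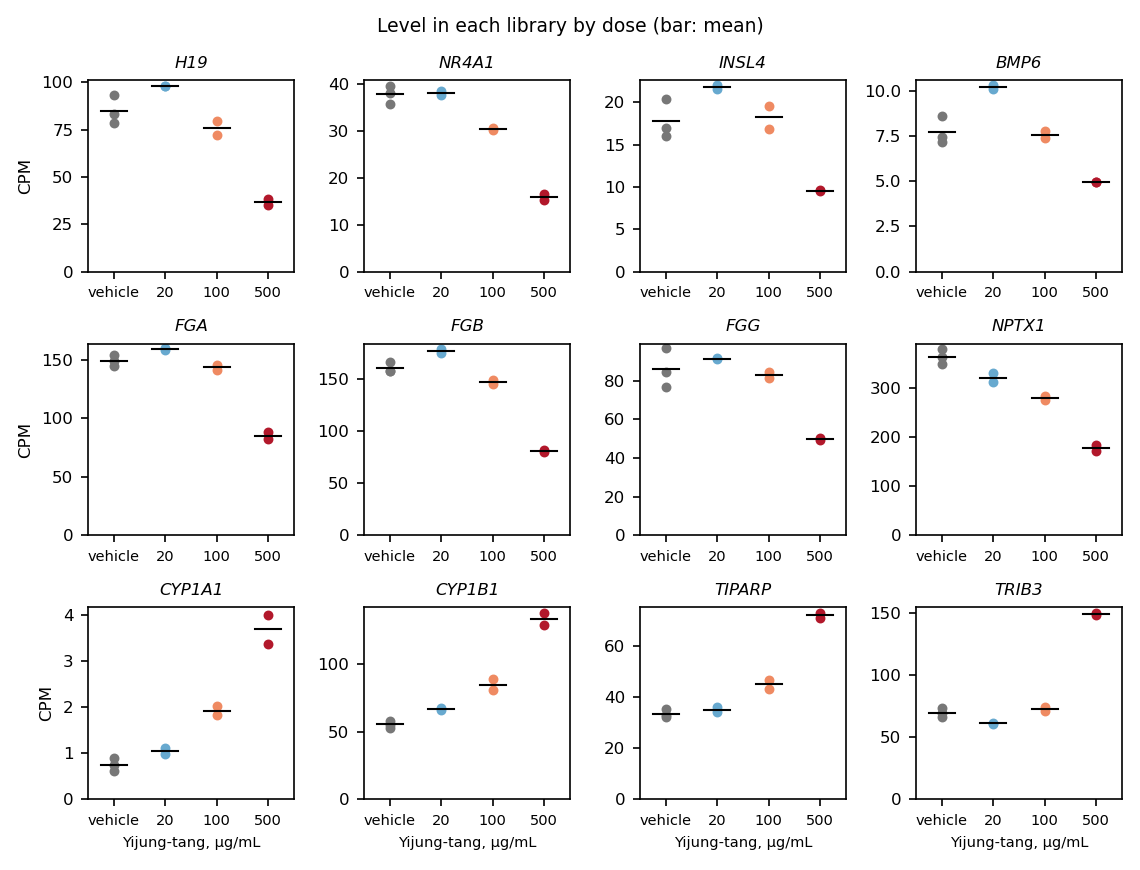
CPM (y axis, from 0) in each library of vehicle and of Yijung-tang at 20, 100 and 500 µg/mL (x axis) for 12 genes; bars are means of 2 libraries a dose and 3 vehicle libraries. H19 and the fibrinogen chains drop chiefly at 500 µg/mL, whereas CYP1A1 climbs at each step.

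Outside the lists above, the largest rises included NIBAN1, a stress-responsive regulator of translation, with 26.5 and 27.2 CPM at the high dose and 12.4 and 11.4 CPM at the low dose (1.18 ± 0.17). GREM1, a secreted antagonist of bone morphogenetic proteins, had 12.0 and 14.6 CPM at the high dose and 6.18 and 5.65 CPM at the low dose (1.16 ± 0.21), with 4.48 to 5.12 CPM in vehicle libraries. ULBP1, a ligand of the natural killer receptor NKG2D, reached 5.39 and 4.67 CPM at the high dose, against 2.53 and 2.30 CPM at the low dose (1.06 ± 0.25). GREM1 was not called with all 59 libraries, and ULBP1 was not called there, nor on leaving out high-dose replicate 1, low-dose replicate 1 or low-dose replicate 2.

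Of 25 members of the G2/M and mitosis list, 6 were lower at the high dose and 0 higher, by small amounts, and the median was -0.23. The other 19 were not called. KIF20A, a kinesin of cytokinesis, had 63.1 and 60.1 CPM at the high dose and 77.5 and 83.1 CPM at the low dose (-0.38 ± 0.07; adjusted p = 0.000893, edgeR). AURKA and TPX2, the spindle kinase and its activator, fell by 0.27 and 0.23, NUSAP1 by 0.26, DLGAP5 by 0.25 and the checkpoint kinase BUB1B by 0.18. MKI67, the proliferation marker, stood at -0.30 and was not called. Against vehicle, the log2 ratio of MKI67 was 0.03 at the high dose and 0.33 at the low dose. That of BUB1B was -0.06 and 0.12. The median of the list against vehicle was -0.29 at the high dose and -0.06 at the low dose. Among 30 DNA replication genes 2 were lower, among them RRM2, a ribonucleotide reductase subunit, by 0.25. With all 59 libraries none of the 6 mitotic calls held; except for KIF20A, and DLGAP5 without high-dose replicate 2, they were lost without any 1 of the 4 compared libraries. RRM2 lost its call with all 59 libraries and without high-dose replicate 1 or low-dose replicate 1.

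Single calls were scattered over the other lists, beside a share of 2.25% called over all genes tested. In the glycolysis and hypoxia list ALDOC, the brain-type aldolase, had 4.78 and 3.24 CPM at the high dose and 1.37 and 1.51 CPM at the low dose (1.48 ± 0.21). The neuronal enolase ENO2 rose by 0.54 and ADM, adrenomedullin, fell by 0.36, so 2 of 26 were higher and 1 lower. Of 15 glucocorticoid receptor targets TSC22D3 rose by 0.68, while KLF9 fell by 0.81 and the kinase SGK1 by 0.65. SGK1 measured 31.5 and 32.5 CPM at the high dose and 50.33 and 49.97 CPM at the low dose (adjusted p = 3.673e-09, edgeR). In the NF-kB list of 18 the cytokine LIF and the chemokine CXCL5 rose by 0.29 and 0.52, and PTGS2, the inducible cyclooxygenase, fell to 14.3 and 16.5 CPM at the high dose, against 28.5 and 25.6 CPM at the low dose. The keratin KRT19 had 36.0 and 38.3 CPM at the high dose and 21.8 and 21.6 CPM at the low dose (0.78 ± 0.12), whereas KRT18 fell by 0.31 and KRT8 had a log2 fold change of -0.37 without a call. TGFBI and COL4A1, extracellular matrix genes, fell by 0.27 and 0.35 among 22 genes of the TGF-beta list, and the death receptor TNFRSF10B rose by 0.30 among 23 p53 targets. With all 59 libraries the calls of ALDOC, ENO2, SGK1 and TGFBI held and those of ADM, TSC22D3, KLF9, LIF, CXCL5, PTGS2, KRT19, KRT18, COL4A1 and TNFRSF10B did not. ADM, TSC22D3, CXCL5, KRT18 and COL4A1 were also lost without any 1 of the 4 compared libraries, LIF on leaving out high-dose replicate 1, low-dose replicate 1 or low-dose replicate 2, PTGS2 without either high-dose library or low-dose replicate 1, and KLF9 without high-dose replicate 2.

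Several programmes showed no call in either direction: 22 NRF2 targets, 16 heat shock genes, 5 metallothionein and zinc export genes, 15 interferon-stimulated genes, 14 FOXO targets, 26 respiratory chain genes, 15 mitochondrially encoded genes, 26 ribosomal protein genes, 22 ribosome biogenesis genes, 5 PXR and CAR targets and 6 markers of other cell types. Their medians ran from -0.22 to 0.22. Over all genes tested 2.25% were called, a share at which lists of this size hold few calls or none. HMOX1, the heme oxygenase, had 194 and 176 CPM at the high dose and 141 and 140 CPM at the low dose (0.40 ± 0.11), just outside the threshold with an adjusted p of 0.0533, which ranged from 0.000454 to 0.479 over the 12 alternatives. The mitochondrial ribosomal RNA MT-RNR1 measured 1642 and 1430 CPM at the high dose and 1927 and 2105 CPM at the low dose (-0.39 ± 0.21; adjusted p = 0.531, edgeR). Vehicle libraries had 161 to 178 CPM for HMOX1 and 1454 to 1627 CPM for MT-RNR1. The low dose lay below that range for HMOX1 and above it for MT-RNR1. The ferritin chain FTH1 had a log2 fold change of 0.16, the chaperone HSPA8 of 0.04, the ribosomal protein RPL4 of -0.002 and MDM2, the p53 inhibitor, of 0.02; none was called.

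Over all 413 called genes, the medium-dose mean lay between the high-dose and low-dose means in 354, 205 of the higher and 149 of the lower genes. It covered a median of 14.51% of the log2 difference in the higher genes and 21.18% in the lower ones.

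Of the 91 genes whose dose effect differed from the mean of the single-herb extracts, 89 were also called in Yijung-tang itself, 77 of them higher and 12 lower. They were 21.55% of the genes called in Yijung-tang and 97.8% of the 91. The Yijung-tang dose effect, from the same libraries, is part of both contrasts. This overlap is therefore in part built in and is no separate support. Genes such as H19 and FGB, among the largest falls, had no called difference (adjusted p = 0.095 and 0.576): their log2 ratios of high over low mean were -1.49 and -1.58 in Aconiti Lateralis Radix Preparata, and -0.10 and -0.01 in Zizyphi Fructus. NR4A1 ranged from -1.29 in Cimicifugae Rhizoma to 0.22 in Citri Unshius Pericarpium, and its difference was not called either (adjusted p = 0.12). With all 59 libraries 30 differences were called. Without high-dose replicate 2 the count was 57, without low-dose replicate 1 it was 55 and without low-dose replicate 2 it was 50.

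**Figure D5:**
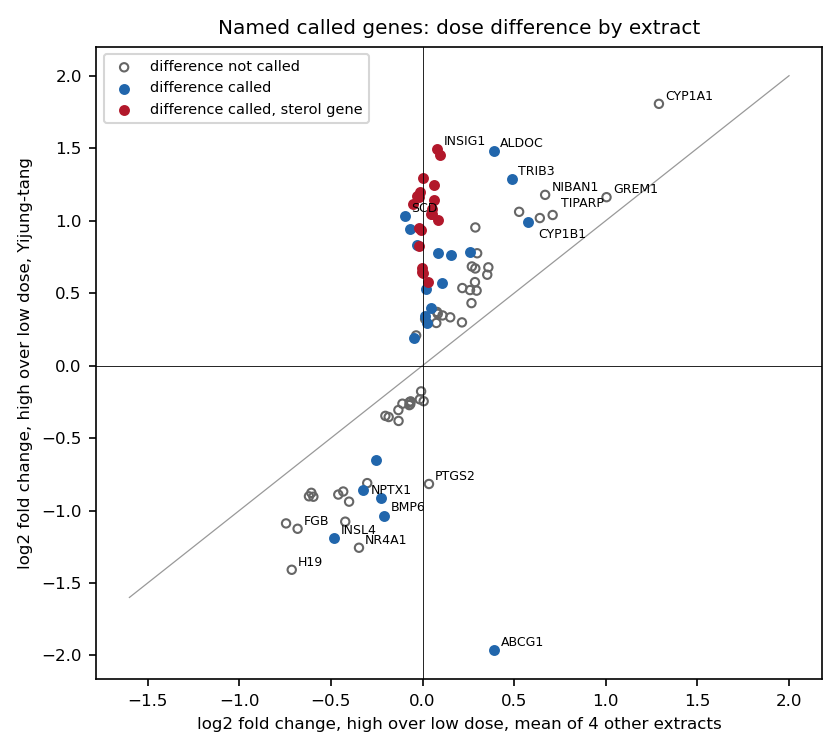
Log2 fold change of the high over the low dose in Yijung-tang (y axis) against the mean of the same change in 4 single-herb extracts (x axis) for 91 called genes; filled points are the 41 genes whose difference was called, red ones sterol genes, and the grey line marks equal change. The sterol genes stand in a column near 0 on the x axis, while CYP1A1 and GREM1 lie closer to the line.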

How the data were processed

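RNA-seq libraries of A549 cells, strand-specific and read as 100 bp pairs per the labels' protocols, were analysed from the deposited table. The submitters' processing notes name RSEM 1.3.3, STAR 2.7.3a, Trim Galore 0.6.5 and FastQC 0.11.9 and give the build as hg38 or GRCh38, without an annotation release. RSEM estimates are what the authors deposited: expected counts for each gene with no depth scaling, 84.4% of them whole numbers among genes with any count. The table also holds 210 per-sample columns of other series, not used here. The code in a sample's description identified its column.

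Expected counts were rounded and fitted with edgeR 4.0.16 (quasi-likelihood, TMM, R 4.3.3) as 25 group means over 55 libraries (30 residual degrees of freedom), after filterByExpr (minimum count 10, minimum total 15). Adjusted p-values are Benjamini-Hochberg over all genes tested; standard errors are the absolute log2 fold change over the square root of F. Levels are TMM-scaled CPM, which are not scaled for gene length and so are compared only within a gene. DESeq2 1.42.0 was an alternative.

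The genes compared, the 28 gene lists and the 4 libraries left out were chosen with earlier results of these data known. Named genes are the 15 largest rises and 15 largest falls among called genes without overlap and with at least 5 CPM in the higher group, called list members, the 2 members of highest CPM of lists with few calls, 8 fixed genes, and members whose uncalled values are given for completeness; the last were chosen after their values were seen. Some members of these lists are not reported here by name, but enter the counts and medians. Positions are from GENCODE 29 (GRCh38). HSD17B7, KRT8, KRT18 and the ribosomal protein genes have pseudogene copies in the genome among which reads can be split. Banhasasim-tang (1 library a dose) entered no test.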

Additional observations from a re-analysis of the deposited data

Results flagged for a closer look

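For 54 named genes the effect of the high against the low dose differed between Yijung-tang and the mean of the 4 single-herb extracts at the same doses, by the interaction contrast of the edgeR fit with an adjusted p below 0.05 over all genes tested. Each value below is the log2 dose difference in Yijung-tang minus that mean.

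The enzymes from acetyl-CoA to squalene, with transport and control genes, gave 1.41 for INSIG1, 1.30 for MVD, 1.20 for ACAT2, 1.18 for FDFT1, 1.08 for FDPS, 0.97 for HMGCS1, 0.95 for IDI1, 0.92 for MVK, 0.85 for STARD4 and 0.64 for SREBF2. Those of the steps after squalene gave 1.36 for MSMO1, 1.21 for DHCR7, 1.18 for TM7SF2, 1.17 for LSS, 1.03 for CYP51A1, 1.00 for HSD17B7, 1.00 for SQLE, 0.67 for SC5D, 0.65 for EBP and 0.55 for NSDHL. In fatty acid synthesis the differences were 1.13 for SCD, 1.01 for FADS2, 0.86 for FADS1, 0.69 for ELOVL6 and 0.51 for FASN.

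Among stress and chaperone genes they were 0.80 for TRIB3, 0.53 for ALDH1L2, 0.35 for VLDLR, 0.27 for HSPA5 and 0.24 for PDIA4. Further list members gave 1.09 for ALDOC, 0.61 for NEU1, 0.46 for FLCN, 0.42 for CYP1B1 and 0.33 for NPC1. In Bupleuri Radix, given at other doses (190 over 7.6 µg/mL) and outside this contrast, the log2 ratios were 1.48 for NEU1, 1.08 for FLCN and 0.50 for NPC1, beside 0.76, 0.57 and 0.34 in Yijung-tang. The mean over the 4 extracts was 0.49 for TRIB3 and 0.57 for CYP1B1, beside 1.29 and 0.99 in Yijung-tang. TRIB3 was at -0.06 in Zizyphi Fructus, 0.55 in Citri Unshius Pericarpium, 0.62 in Cimicifugae Rhizoma and 0.83 in Aconiti Lateralis Radix Preparata. CYP1B1 was at 1.09 in Cimicifugae Rhizoma. Coptidis Rhizoma, at other doses and outside this contrast, had 0.92 for TRIB3, 0.90 for ALDH1L2, 0.56 for VLDLR, 0.37 for HSPA5 and -0.34 for PDIA4. Banhasasim-tang, with 1 library a dose and no test, had 314 CPM of TRIB3 at the high dose and 85.3 CPM at the low dose.

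Lower in Yijung-tang than in the mean of the 4 extracts were -0.39 for SGK1, -0.53 for NPTX1, -0.69 for SUSD2, -0.71 for INSL4, -0.83 for BMP6 and -2.36 for ABCG1. SUSD2 had a log2 ratio of -0.95 in Cimicifugae Rhizoma, 1 of the 4, beside -0.91 in Yijung-tang. INSL4 had -0.91 in Aconiti Lateralis Radix Preparata, beside -1.19. In Coptidis Rhizoma, at other doses and outside this contrast, SUSD2, INSL4 and NPTX1 had -0.99, -1.29 and -1.32, and BMP6 had -0.38. For ABCG1 the fitted change was -1.97 in Yijung-tang and 0.39 in the mean of the others, from levels of 0.307 and 0.337 CPM at the high dose and 1.08 and 1.46 CPM at the low dose. In Bupleuri Radix its log2 ratio was -1.46.

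Of genes chosen after their values were seen, the differences were 0.95 for MMAB, 0.90 for UAP1L1, 0.76 for PCYT2, 0.75 for LPIN1, 0.68 for ACSS2, 0.65 for ERG28, 0.52 for AACS, 0.51 for IDH1, 0.47 for ACSL4, 0.45 for TMEM97, 0.41 for SLC25A1, 0.40 for LIPA and 0.39 for CPT1A.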

How the results depend on the processing

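No called named gene changed direction in any of the 12 alternatives, and of 117 such genes 48 were called in every alternative that gave an adjusted p. The count of 413 calls became 80 with all 59 libraries, 692 with the 6 Yijung-tang libraries alone, and 161 to 184 without 1 compared library (high-dose replicate 1 or 2, low-dose replicate 1 or 2); DESeq2 size factors gave 408, the DESeq2 Wald test 505 and no low-count filter 498, of which 275 were among the 413. For the difference from the 4 extracts, 91 calls became 30 with all 59 libraries, 192 without the filter and 50 to 62 without 1 compared library. Where 1 library remained at a dose, it was assumed to vary like the other groups. All 59 libraries ended 65 of the 117 named calls; the cause was not tested.

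Replicate numbers do not pair the libraries by any label, and deviations from the group mean of same-numbered high-dose and low-dose libraries had a correlation of -0.17 over 10954 genes. With a replicate block 681 genes were called, or 783 in the 6 Yijung-tang libraries alone; the difference gave 125. With crossed numbers, chosen after seeing the data, 681 genes were called and 131 for the difference. With 2 libraries a dose, small changes of low genes could not be resolved at this depth.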

Other observations

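Lipid genes outside the lists, chosen after their values were seen, also rose at the high dose. MMAB, which lies next to MVK and encodes an enzyme of vitamin B12 activation, had 45.4 and 43.7 CPM at the high dose and 22.8 and 21.9 CPM at the low dose (log2 fold change 1.00 ± 0.10). LPIN1, a phosphatidate phosphatase, measured 98.9 and 99.9 CPM at the high dose and 57.8 and 52.8 CPM at the low dose. PCYT2, of phosphatidylethanolamine synthesis, rose by 0.81, ACSS2, the acetyl-CoA synthetase, by 0.67, and ERG28, a scaffold of sterol enzymes, by 0.67. TMEM97, a binding partner of NPC1, rose by 0.39, the acetoacetyl-CoA synthetase AACS by 0.49, the isocitrate dehydrogenase IDH1 by 0.50, ACSL4 by 0.56, the citrate carrier SLC25A1 by 0.43 and the lysosomal lipase LIPA by 0.44. CPT1A and PLIN2, of fatty acid oxidation and lipid droplets, rose by 0.39 and 0.47. PNPLA3 had 3.24 and 3.12 CPM at the high dose and 1.28 and 1.16 CPM at the low dose. MMAB, PCYT2, ACSL4, SLC25A1, LIPA, CPT1A, PLIN2 and PNPLA3 were not called with all 59 libraries. CPT1A, PLIN2 and PNPLA3 also lost their call without any 1 of the 4 compared libraries (high-dose replicate 1 or 2, low-dose replicate 1 or 2), and SLC25A1 without high-dose replicate 1 or low-dose replicate 2.

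Amino acid genes chosen in the same way rose too: CBS by 0.63, BCAT1 by 0.56, the glycine transporter SLC6A9 by 0.70, SLC1A4 by 0.48 and the alanyl-tRNA synthetase AARS1 by 0.40. ADM2 had 4.51 and 3.96 CPM at the high dose and 1.84 and 1.51 CPM at the low dose. UAP1L1, a relative of a UDP-sugar pyrophosphorylase, had 12.8 and 11.4 CPM at the high dose, against 5.48 and 6.14 CPM at the low dose. Transcription factors among the falls were KLF4 (-0.55), KLF5 (-0.40), SOX2 (-0.46) and EHF (-0.83), and the cyclin CCND3 had 155 and 146 CPM at the high dose and 226 and 227 CPM at the low dose. Of these genes CBS, ADM2, UAP1L1 and CCND3 kept their call with all 59 libraries. SLC6A9, SLC1A4, AARS1 and EHF lost theirs without any 1 of the 4 compared libraries, and EHF also in DESeq2 and without the low-count filter. ADM2 lost it without low-dose replicate 2 (adjusted p = 0.0528), KLF4 without high-dose replicate 1 or low-dose replicate 1, and SOX2 on leaving out high-dose replicate 2 or either low-dose library.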
